A study of Mus musculus with 14 samples.

Results

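The granzymes and perforin are the contents of the cytotoxic granule, and 8 of their genes were followed across 6 groups of cultured mouse CD4 T cells: Gzma, Gzmb, Gzmc, Gzmd, Gzme, Gzmf, Gzmk and Prf1. They were taken as the probe sets of an Affymetrix array whose platform symbol was exactly one of these names, with 1 probe set per gene out of 10, and they are 8 of 18194 genes on the array. The probe sets were chosen by the mean measured level over the 14 arrays, the highest for each gene, and not by any comparison between groups. The 8 genes themselves were chosen with earlier results of these data known. Their counts beside the share of all genes are therefore no independent test. The cells came from spleen and from peripheral and mesenteric lymph nodes. All cultures received human IL-2 at 100 U/ml. Th17 cultures also received TGF-b1 at 5 ng/ml, IL-6 and TNF-a at 20 ng/ml, IL-1b, IL-23 and IL-21 at 10 ng/ml, and antibodies against IL-4 and IFN-gamma. Treg cultures received TGF-b1 at 5 ng/ml beside the IL-2, and Th1 cultures IL-12 at 10 ng/ml with an antibody against IL-4. Each kind of culture was made without (control) and with acetate at 10 mM, a short chain fatty acid, giving 3 control and 3 acetate arrays for Th17 and 2 of each for Treg and for Th1. For the treated Treg and Th1 samples the protocols write acetone and the design text sodium acetate, so the word acetate stands here for all treated arrays. Culture lasted 5 days by the protocols and 6 to 7 by the design text. Nothing read here states the strain, age or genotype of the mice or says that a group's arrays stem from different mice or dishes. The p-values thus reflect the spread among these arrays alone, and that spread may be technical.

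Cytotoxic lymphocytes store granzymes, which are serine proteases, together with the pore-forming protein perforin in secretory granules, and release them toward a target cell at the point of contact. Perforin opens the target's membrane and lets granzymes in. Granzyme B cleaves after aspartate and starts apoptosis through caspases and Bid, whereas granzymes A and K cut after basic residues. The granule is best known from CD8 T cells and natural killer cells, but activated CD4 T cells of several subsets, regulatory T cells among them, also make granzymes.

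The 8 genes sit at 3 places in the genome. On chromosome 14 the RefSeq annotation (GRCm38.p6) lists, among protein-coding genes and in genome order, Ctsg, Gzme, Gzmd, Gzmg, Gzmn, Gzmf, Gzmc and Gzmb, so that 5 of the 8 belong to 1 cluster. Gzma and Gzmk are next to each other on chromosome 13, and Prf1 lies alone on chromosome 10 between Adamts14 and Pald1. The promoter windows of RefSeq (250 bases before to 50 bases after the annotated start, 8 of 8 genes found) are shown for 6 genes. Gzmb, Gzmc, Gzmd and Gzme allow a comparison within the cluster, and Gzma and Prf1 are the genes from elsewhere in the genome with the largest acetate differences in Th1 cultures. Each is printed 5′ to 3′ on the gene's own strand, in lower case, with matches to the searched motifs in capitals (a capital ACCACA or CACACC is a motif on the opposite strand). The windows are Gzmb at chr14:56262285-56262584, Gzmc at chr14:56234608-56234907, Gzmd at chr14:56132544-56132843, Gzme at chr14:56120576-56120875 and Gzma at chr13:113100932-113101231, all on the minus strand, and Prf1 at chr10:61297586-61297885 on the plus strand.
Gzmb: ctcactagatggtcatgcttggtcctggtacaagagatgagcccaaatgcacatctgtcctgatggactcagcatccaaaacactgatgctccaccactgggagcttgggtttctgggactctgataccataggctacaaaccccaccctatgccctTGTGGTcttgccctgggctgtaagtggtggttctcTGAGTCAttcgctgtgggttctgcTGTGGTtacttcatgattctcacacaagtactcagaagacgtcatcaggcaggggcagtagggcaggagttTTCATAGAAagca
Gzmc: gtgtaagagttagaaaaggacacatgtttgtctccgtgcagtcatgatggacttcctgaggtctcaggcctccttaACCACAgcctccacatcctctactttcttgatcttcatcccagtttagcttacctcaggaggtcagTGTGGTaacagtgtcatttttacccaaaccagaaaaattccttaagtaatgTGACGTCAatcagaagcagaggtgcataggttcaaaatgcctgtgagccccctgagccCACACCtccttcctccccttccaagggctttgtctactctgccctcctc
Gzmd: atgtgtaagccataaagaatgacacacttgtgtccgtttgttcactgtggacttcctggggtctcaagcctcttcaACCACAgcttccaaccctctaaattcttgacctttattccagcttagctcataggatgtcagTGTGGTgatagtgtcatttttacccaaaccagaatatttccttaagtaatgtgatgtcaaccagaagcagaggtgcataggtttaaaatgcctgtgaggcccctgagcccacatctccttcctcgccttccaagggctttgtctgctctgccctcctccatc
Gzme: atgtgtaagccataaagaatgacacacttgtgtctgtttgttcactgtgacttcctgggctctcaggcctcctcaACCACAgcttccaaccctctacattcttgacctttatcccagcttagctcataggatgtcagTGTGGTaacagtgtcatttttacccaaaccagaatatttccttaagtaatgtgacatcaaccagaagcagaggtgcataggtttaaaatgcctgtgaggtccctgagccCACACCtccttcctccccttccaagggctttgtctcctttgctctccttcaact
Gzma: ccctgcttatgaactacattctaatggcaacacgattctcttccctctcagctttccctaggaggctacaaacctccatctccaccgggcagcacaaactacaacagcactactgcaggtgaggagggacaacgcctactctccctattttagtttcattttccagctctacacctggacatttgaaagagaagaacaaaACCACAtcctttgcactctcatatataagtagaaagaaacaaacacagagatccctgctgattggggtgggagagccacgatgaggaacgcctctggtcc
Prf1: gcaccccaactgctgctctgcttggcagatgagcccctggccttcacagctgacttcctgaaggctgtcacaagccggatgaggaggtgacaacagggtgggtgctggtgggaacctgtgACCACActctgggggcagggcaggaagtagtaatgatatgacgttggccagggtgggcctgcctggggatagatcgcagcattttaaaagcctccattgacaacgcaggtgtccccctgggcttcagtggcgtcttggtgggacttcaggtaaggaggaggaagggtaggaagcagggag

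A total of 9 motifs were searched on both strands in these windows and in all 32851 promoter windows of the same length. The RUNX core TGTGGT was present in 7 of the 8 genes, all but Gzmk, against 16.8% of all windows. Gzmb has it at positions -93 and -34, counted from the start with no position 0, and Gzmc, Gzmd, Gzme and Gzmf each have one on the opposite strand and one on their own strand further downstream. In these 4 genes the windows are copies of each other: Gzmd and Gzme are identical at 93.4% of aligned positions, Gzmc and Gzmd and also Gzmc and Gzme at 82.7%, and Gzmf and the other 3 at 73.5% to 77.3%, so their matches are not independent. Every other pair of the 8 windows was between 40.6% and 49.8% identical in the same alignment. The cyclic AMP response element TGACGTCA was found in Gzmc (-57 to -50) and Gzmf (-82 to -75), against 1.79% of all windows. Counted from its first base, the aligned bases of Gzmd read TGATGTCA, a C4T change from Gzmc, and those of Gzme read TGACATCA, a G5A change, so neither matched. The AP-1 motif TGANTCA was present in Gzmb alone of the 8 (-58 to -52; 7.81% of all windows), as was the STAT spacing TTCNNNGAA (38 to 46; 8.30%). The short T-box core GGTGTG occurred in Gzmc, Gzme and Gzmk (19.0% of all windows). The longer T-box form AGGTGTGA, the E-box CACGTG, the GATA motif AGATAA and the TATA box TATAAA had no match in the 8 windows, against 1.28%, 7.15%, 11.2% and 13.6% of all windows. These matches describe letters in the windows; no binding was measured.

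**Figure D1:**
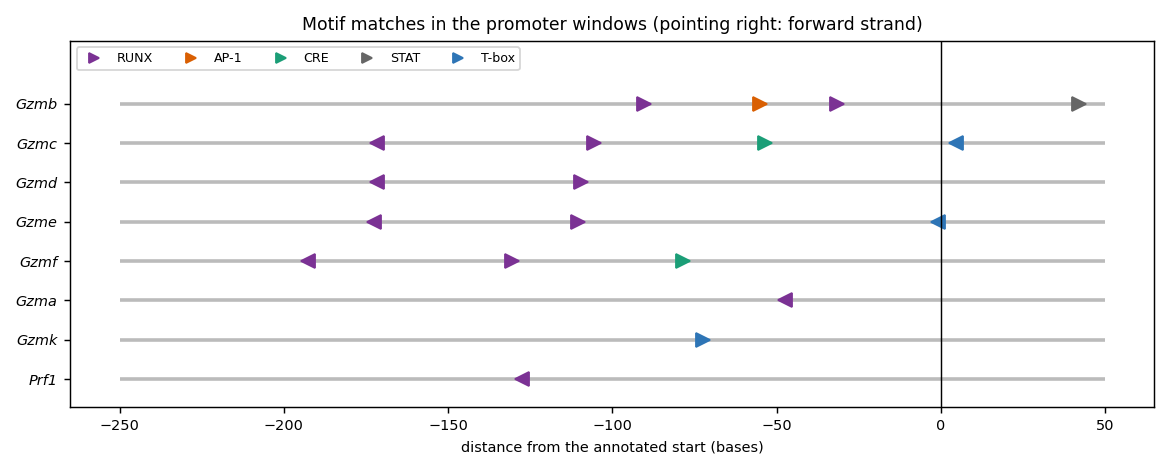
Positions of motif matches in the 8 promoter windows. The x axis is the distance from the annotated start in bases, each row is a gene, and each triangle is a match, pointing right for the gene's own strand and left for the other. RUNX matches appear in every row but Gzmk, and the rows of Gzmc, Gzmd, Gzme and Gzmf share a pair of them.

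Values are MAS5 signal intensities as deposited, on which the arrays were not on a common scale: their 2% trimmed means ran from 53.2 to 116.0, a 2.18-fold range, with control replicate 1 of Th17 highest and the next array at 81.9. Differences below are therefore on the log2(signal + 3) scale of the deposited values, tested with limma over 10916 genes and called at an adjusted p under 0.05, with the value after quantile normalization beside them where it changes a call. The median difference over all genes tested for acetate minus control was -0.29 (Th17), -0.13 (Treg) and 0.23 (Th1), and 0.62 for untreated Th17 minus Th1; after quantile normalization these medians were at most 0.03 in size. Of the lineage genes in the untreated cultures, Il17a had a mean signal of 866 in Th17 against 4.03 in Treg and 7.74 in Th1 cultures, Foxp3 was highest in Treg (303, against 116 and 10.9), and Tbx21 in Th1 (260, against 81.0 in Th17 and 182 in Treg). Il2ra, listed as a Treg marker, was lowest in untreated Treg cultures (458, against 1587 in Th17 and 812 in Th1). Of the 4 listed Th1 markers, 1 was called higher and 0 lower in untreated Treg than in untreated Th1 cultures (1 and 1 after quantile normalization). Of all genes, 1.87% were called higher and 0.568% lower there. The summed signal of the 4 was 1559 to 1793 in untreated Treg and 1095 to 3343 in untreated Th1 cultures. All 6 CD4 T cell markers of a list (Cd4, Cd3e, Cd3d, Cd3g, Cd5 and Zbtb7b) were tested, and over the 3 kinds of culture together all 6 were called lower with acetate, as 11.8% of all genes were. In these bulk RNA samples a change in the number of cells that express a gene and a change in RNA per cell cannot be told apart.

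The level of each gene by group is described first. Prf1, the perforin gene (probe set 1451862_a_at), had signals of 278, 61.6 and 169.6 in untreated Th17, 858 and 703 in untreated Treg, and 340.4 and 91.1 in untreated Th1 cultures. With acetate they were 433, 160.4 and 314 in Th17, 1293 and 902 in Treg, and 1702 and 3983 in Th1 cultures. The Th1 acetate arrays stood above all others and the Treg arrays came next, whereas the Th17 arrays and the Th1 controls overlapped.

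Gzmb (1419060_at) had signals of 3583, 542 and 1672 in untreated Th17 cultures, against 10719.9 and 9775 in untreated Treg and 9426 and 7051 in untreated Th1 cultures. With acetate they were 11387, 4795 and 8246 in Th17, 12388 and 11704 in Treg, and 13306 and 11790 in Th1 cultures. The 3 untreated Th17 arrays were the lowest of the 14, and the Treg and Th1 acetate arrays overlapped with each other above all remaining arrays. In those 4 arrays the probe set of Gzmb was among the brightest on the array: between 5 and 12 probe sets were brighter, and its signal was 76.8% to 82.4% of the highest on the array. In untreated Th17 arrays 463 to 2035 probe sets were brighter. Whether the probe set saturated was not tested.

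Gzma (1417898_a_at) showed a different order. Its signals were 664, 267 and 547 in untreated Th17, 4546 and 3655 in untreated Treg and 149.8 and 148 in untreated Th1 cultures, and with acetate 2528, 904 and 3717, then 8611 and 9492, then 1231 and 1901. The Treg acetate arrays were highest, the 2 untreated Th1 arrays were the lowest of all and almost equal, and the acetate arrays of Th17 and Th1 overlapped. Gzmk (1422280_at), its neighbour, had signals of 7.13, 3.84 and 0.977 in untreated Th17, 54.2 and 20.1 in untreated Treg and 7.18 and 18.5 in untreated Th1 cultures. With acetate it reached 94.6, 6.03 and 43.6, then 234 and 329, then 51.6 and 109.5. Here too the Treg acetate arrays stood above all others, and acetate replicate 2 of Th17 lay within the range of the untreated Th17 arrays.

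The 4 cluster genes whose windows are alike follow. Gzmc (1421256_at) had 253, 33.6 and 86.0 in untreated Th17, 899 and 817 in untreated Treg and 206 and 189 in untreated Th1 cultures, and with acetate 291, 143 and 446, then 1355 and 1600, then 674 and 885. Gzmd (1420344_x_at) had 1.78, 0.209 and 0.204, then 51.9 and 37.7, then 46.8 and 8.05 without acetate, and 33.3, 8.16 and 54.3, then 97.3 and 160.4, then 111 and 351 with it, in the same order of cultures. Gzme (1450171_x_at) had 0.966, 0.716 and 0.514, then 58.6 and 38.8, then 46.5 and 18.2 without acetate, and 111, 12.9 and 58.6, then 104 and 221, then 142 and 324 with it. For Gzmd and Gzme the untreated Th17 arrays were apart from and below all 11 other arrays, with signals below 2.90, the 25th percentile of the whole table. Gzmf (1418679_at) stayed low, between 1.86 and 33.5 over the 14 arrays, and its mean log2 value of 3.70 lay just above the filter for testing, which corresponds to a signal of 9.11. All 8 genes passed that filter, although for Gzmd, Gzme, Gzmf and Gzmk every untreated Th17 signal was below it. Arrays of a group ranked alike for many members. On the deposited scale, control replicate 1 of Th17, the array with the highest trimmed mean, held the highest value of its group in 8 of 8 genes. Acetate replicate 2 of Th17 held the lowest in 8, and control replicate 1 of Treg the highest in 8. That Treg array had a trimmed mean of 69.7, against 55.1 for control replicate 2. The share of all genes that ranked this way was not computed, so the counts show nothing particular to these 8. After quantile normalization Gzma was higher in control replicate 3 of Th17 (log2 value 8.79) than in replicate 1 (8.55). Gzmc and Prf1 were then higher in control replicate 2 of Treg than in replicate 1.

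**Figure D2:**
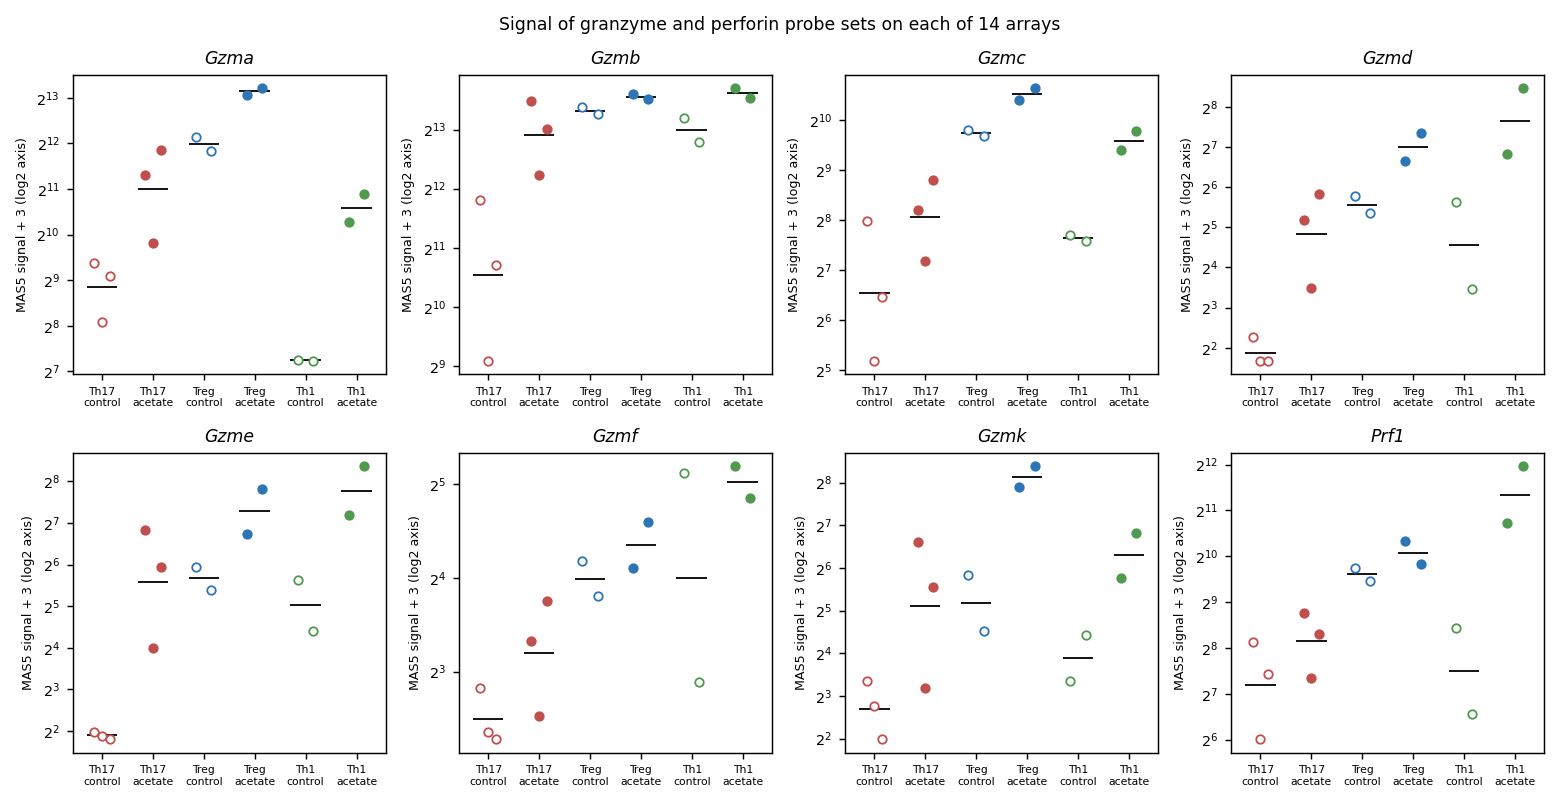
Signal of the 8 genes on each of the 14 arrays. The y axis is the MAS5 signal plus 3 on a log2 axis, each point is an array (open: control, filled: acetate), and the lines are group means of the log2 values. The untreated Th17 arrays are the lowest group for 7 of the 8 genes, whereas for Gzma the untreated Th1 arrays are lowest.

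Between untreated cultures, Th17 stood below Treg. All 8 genes had every untreated Th17 array below every untreated Treg array, a pattern that 5.84% of all genes tested showed, and 7 of the 8 were called lower, against 2.09% of all genes (6.01% after quantile normalization, with the same number of the 8 called). Gzme differed by -3.77 (SE 0.57, adjusted p 8.89e-05) and Gzmd by -3.69 (SE 0.61, adjusted p 0.000217). The untreated Th17 signals of both lie under the pseudocount, which sets the size of these differences: with a pseudocount of 10.8 they were -2.35 and -2.26, and with 1 they were -4.82 and -4.83, called each time. Gzma differed by -3.14 (SE 0.41, adjusted p 1.65e-05), and Gzmb by -2.79 (SE 0.45, adjusted p 0.00017). Gzmf, at -1.50 (SE 0.58, adjusted p 0.0811), did not pass. The call of Gzmk was lost without control replicate 3 of Th17 or control replicate 1 of Treg, with adjusted p up to 0.157.

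Against untreated Th1 cultures the genes of untreated Th17 cultures split. Gzmb (-2.46, SE 0.45, adjusted p 0.000892), Gzmd (-2.68, SE 0.61, adjusted p 0.00509) and Gzme (-3.12, SE 0.57, adjusted p 0.000933) were lower in Th17, 3 of 8 against 1.09% of all genes called lower (3.62% after quantile normalization). The call of Gzmd was lost without control replicate 1 of Th1 (adjusted p 0.0944). Gzma was higher by 1.61 (SE 0.41, adjusted p 0.0107), a direction in which 26.6% of all genes were called on the deposited scale and 2.99% after quantile normalization. After quantile normalization Gzma was at 0.93 and no longer called (adjusted p 0.214), as it was without control replicate 1 of Th17 or control replicate 2 of Th1 (adjusted p up to 0.0883), and Gzmc, at -1.09 as deposited, was at -1.77 and called lower (adjusted p 0.0435). The 2 granzymes that neighbour each other on chromosome 13 had opposite signs here, since Gzmk was at -1.18 (SE 0.66, adjusted p 0.161), which did not pass. Prf1 was at -0.30 (SE 0.52, adjusted p 0.669). Among markers tested for other cells, 1 of 2 CD8 T cell and 3 of 6 natural killer cell markers were called higher in Th17. Both counts held after quantile normalization. Of 5 for macrophages and dendritic cells 1 was higher and 1 lower. CD8 markers summed to 52.9 to 321 in Th17 and 31.6 to 50.3 in Th1 cultures. Natural killer markers summed to 1285 to 3937 and 468 to 583. What such cells contributed was not tested.

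Untreated Treg cultures were higher than untreated Th1 cultures in 3 of 8 genes, against 1.87% of all genes. Gzma was higher by 4.75 (SE 0.45, adjusted p 6.42e-07), a 26.9-fold difference on the scale of signal plus 3. Gzmc was higher by 2.10 (SE 0.55, adjusted p 0.0386) and Prf1 by 2.12 (SE 0.57, adjusted p 0.0486). Gzma kept its call when any one array was left out. Gzmc lost it without any one of the 4 untreated Treg and Th1 arrays, and ran from 2.03 to 2.17 with 1 array left out. Gzmc also lost it with a common trimmed mean, a pseudocount of 1, no filter or the mean of probe sets. Prf1 lost it without control replicate 1 of Th17, either Treg control or control replicate 2 of Th1. With 1 array left out Prf1 ran from 1.18 to 3.05. Its call was lost as well after quantile normalization (adjusted p 0.0791), a common trimmed mean, a pseudocount of 1 or no filter. With the mean of its probe sets Prf1 was at 0.73 (adjusted p 0.544). For Gzmb the difference was 0.33, with a 95% interval of -0.68 to 1.34. Among markers tested for other cells, 1 of 2 CD8 T cell and 1 of 6 natural killer cell markers were called higher in Treg. It was 1 of 1 for B cells, 2 of 3 for mast cells and basophils, and 0 of 5 for macrophages and dendritic cells. CD8 markers summed to 169 to 235 in Treg and 31.6 to 50.3 in Th1 cultures. Natural killer markers summed to 1487 to 2546 and 468 to 583, and B cell markers to 2130 to 2205 and 478 to 538. What such cells contributed was not tested.

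**Figure D3:**
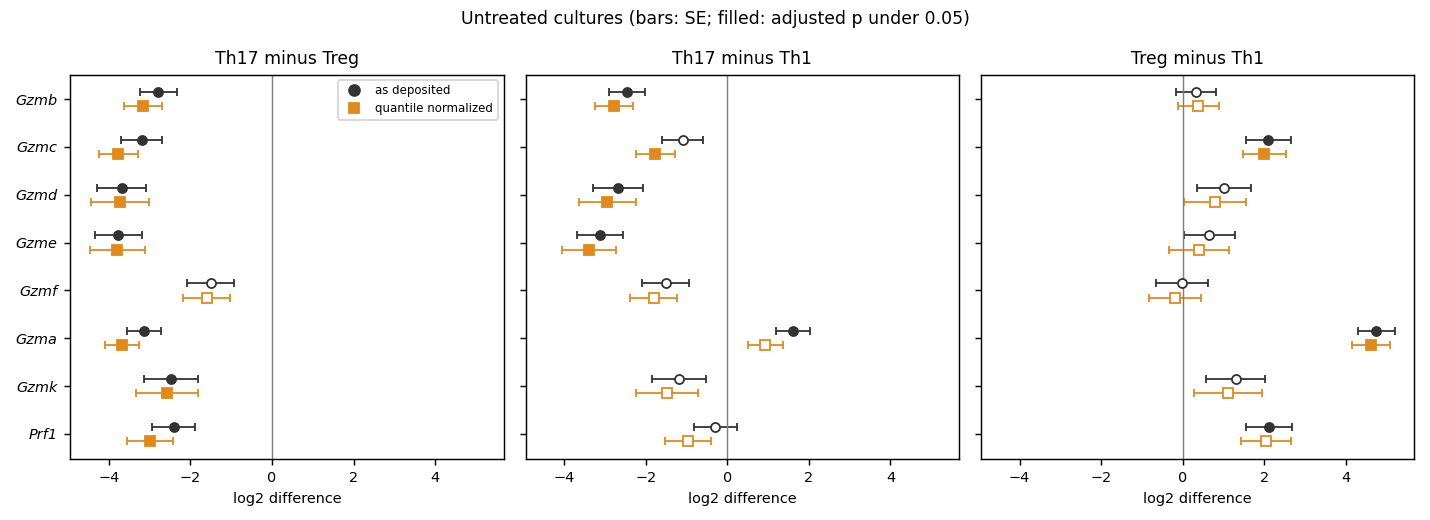
Differences between untreated cultures for the 8 genes. The x axis is the log2 difference, points are estimates with SE bars on the deposited scale (circles) and after quantile normalization (squares), and filled points passed an adjusted p under 0.05. In the first panel 7 of 8 genes are filled and all lie left of 0. In the second, Gzma alone lies right of 0. In the last, every gene but Gzmf (-0.011) lies right of 0 on the deposited scale.

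Most of these genes were higher with acetate in Th17 cultures. There 6 of 8 were called higher and 0 lower, against 4.28% of all genes called higher and 13.4% called lower (11.7% and 8.66% after quantile normalization, with the same 6 of the 8 called). Gzmb rose by 2.37 (SE 0.40, adjusted p 0.00043), Gzma by 2.14 (SE 0.37, adjusted p 0.000481) and Gzmk by 2.41 (SE 0.59, adjusted p 0.00776). Gzme rose by 3.69 (SE 0.51, adjusted p 8.06e-05) and Gzmd by 2.96 (SE 0.54, adjusted p 0.00082), sizes that rest on the pseudocount: with 10.8 they were 2.35 and 1.72, and with 1 they were 4.72 and 4.02, called each time. Gzmk was at 1.66 and 2.86 with these pseudocounts, so the 6 genes have no fixed order. The mean signal of Gzma went from 492 ± 204 (SD, n = 3) to 2383 ± 1412 (SD, n = 3). Gzmc rose by 1.51 (SE 0.45, adjusted p 0.024), but lost the call without control replicate 2, control replicate 3 or acetate replicate 3 of Th17 (adjusted p up to 0.145). Prf1, the pore-forming member, was at 0.95 (SE 0.47, adjusted p 0.159) and Gzmf at 0.71 (SE 0.52, adjusted p 0.348), neither of which passed. All acetate arrays lay above all control arrays for Gzma, Gzmb, Gzmd and Gzme, 4 of 8 against 6.93% of all genes. After quantile normalization it was 7 of 8, all but Gzmc, and the share of all genes on that scale was not computed. The median of the 8 differences was 2.26, against -0.29 over all genes tested. The CD8 T cell marker Cd8b1 rose in the same arrays by 1.45 (adjusted p 0.00662) while Cd8a was at 0.20 (adjusted p 0.824), and the summed signal of the 2 was 52.9 to 321 without and 185 to 325 with acetate. Of 5 tested macrophage and dendritic cell markers 1 rose there, Cd68 by 1.83 (adjusted p 0.00451), and their median difference was -0.43. The summed signal of all 8 such markers was 319 to 597 without and 375 to 1173 with acetate. Lyz2, one of them, did not pass the filter, at 3.61 to 9.06 in the group means. Ighm, of B cells, fell by 1.53 (adjusted p 0.00754), and the summed B cell markers went from 828 to 2119 without to 248 to 810 with acetate. For natural killer cells 6 markers were tested, of which 0 rose and 1 fell, with a median difference of 0.77. After quantile normalization 1 rose and 0 fell. The sum of the 8 measured was 1285 to 3937 without and 894 to 2356 with acetate. The part of such cells in the result was not tested.

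In Treg cultures 1 of 8 genes was called, against 2.31% of all genes called higher and 2.73% lower (7.07% and 5.45% after quantile normalization). This was Gzmk, which rose by 2.95 (SE 0.72, adjusted p 0.0167), from signals of 54.2 and 20.1 to 234 and 329. Its call was lost without control replicate 2, acetate replicate 1 or acetate replicate 2 of Treg, with adjusted p up to 0.211. In 7 of 8 genes, all but Gzmf, both acetate arrays lay above both control arrays, a pattern that 21.8% of all genes showed. After quantile normalization it was 8 of 8, and the share of all genes on that scale was not computed. Gzma was at 1.15 (SE 0.45, adjusted p 0.163), Gzme at 1.61 (SE 0.63, adjusted p 0.157) and Gzmd at 1.44 (SE 0.66, adjusted p 0.246). Gzmb was at 0.23, with a 95% interval of -0.78 to 1.25, and Prf1 at 0.47, with an interval of -0.71 to 1.66. The median of the 8 differences was 0.96, against -0.13 over all genes tested. Of the 5 tested macrophage and dendritic cell markers 1 rose there, H2-Ab1 by 2.36 (adjusted p 0.00454), with a median difference of 0.24, and the summed markers went from 249 to 295 without to 812 to 898 with acetate. Of 6 tested natural killer cell markers 1 rose, Klre1 by 1.67 (adjusted p 0.023), with a median difference of -0.03. The summed markers were at 1487 to 2546 without and 1646 to 1686 with acetate. The summed B cell markers went from 2130 to 2205 without to 751 to 1408 with acetate, with 0 of 1 tested called. Those of CD8 T cells were at 169 to 235 and 218 to 222, with 0 of 2 called. The part of such cells was not tested.

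In Th1 cultures 4 of 8 genes were called higher and 0 lower, against 1.63% of all genes called higher and 0.412% lower (2.10% and 1.91% after quantile normalization). Prf1 had the largest difference with all arrays, 3.86 (SE 0.57, adjusted p 0.000515), a 14.5-fold change on the scale of signal plus 3. When 1 array was left out, Prf1 ran from 2.92 to 4.79 and Gzma from 3.02 to 3.65, so their order is not fixed. With the mean of its probe sets Prf1 was at 1.60 and not called (adjusted p 0.0797). Gzma rose by 3.34 (SE 0.45, adjusted p 0.000158), from signals of 149.8 and 148 to 1231 and 1901. Gzmd rose by 3.10 (SE 0.66, adjusted p 0.0124) and Gzme by 2.75 (SE 0.63, adjusted p 0.0198). After quantile normalization 2 of 8 were called, Gzma at 2.97 (adjusted p 0.00828) and Prf1 at 3.55 (adjusted p 0.0117), and Gzmd and Gzme were at 2.90 (adjusted p 0.0535) and 2.52 (adjusted p 0.0715). Gzmd and Gzme also lost their calls without control replicate 2 or acetate replicate 2 of Th1, with adjusted p up to 0.227 and 0.207. Gzmk at 2.41 (adjusted p 0.0846) and Gzmc at 1.95 (adjusted p 0.067) did not pass, and Gzmb was at 0.62, with a 95% interval of -0.39 to 1.63. Both acetate arrays lay above both control arrays in 7 of 8 genes, all but Gzmf, as they did in 35.2% of all genes. The median of the 8 differences was 2.58, against 0.23 over all genes tested. Natural killer cell receptor genes rose in the same arrays: of 6 tested markers of these cells 3 rose, Klrk1 by 3.03 (adjusted p 0.00169), Klrc1 by 2.29 (adjusted p 0.0135) and Klre1 by 2.15 (adjusted p 0.0075). The summed signal of all 8 measured markers went from 468 to 583 without acetate to 1907 to 2437 with it. Ncr1, also among those measured, did not pass the filter, with mean signals of 3.74 to 7.18 over the groups. At such signals absent RNA and a probe set that responds poorly cannot be told apart. Ighm fell by 2.77 (adjusted p 0.0013), and the summed B cell markers went from 478 to 538 without to 84.4 to 105 with acetate. Of 2 tested CD8 T cell markers 0 were called, and their sum was 31.6 to 50.3 without and 49.7 to 105 with acetate. The part of such cells in the result was not tested.

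**Figure D4:**
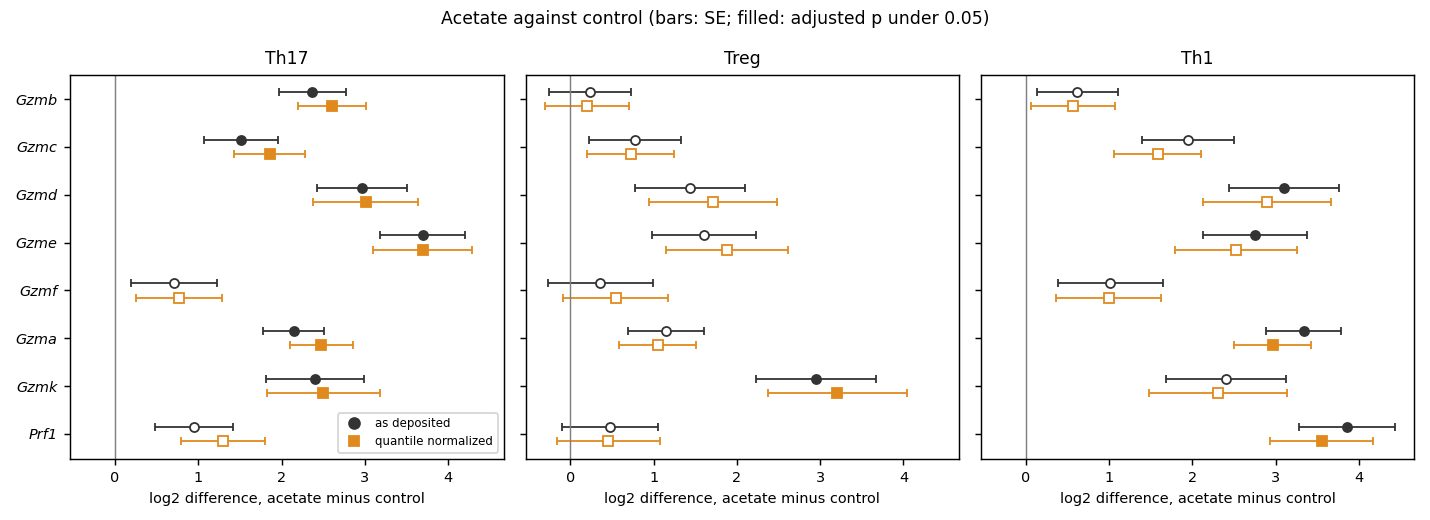
Acetate minus control for the 8 genes in the 3 kinds of culture. The x axis is the log2 difference, points are estimates with SE bars on the deposited scale (circles) and after quantile normalization (squares), and filled points passed an adjusted p under 0.05. Gzmb is filled at 2.37 in the Th17 panel and Prf1 at 3.86 in the Th1 panel, although the F test of a difference between cultures called neither (adjusted p 0.147 and 0.0527), and all 24 deposited estimates lie right of 0.

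Over the 3 subsets together, with equal weight for each, the mean acetate effect was called higher in 7 of 8 genes, against 9.31% of all genes (17.7% after quantile normalization, with the same 7 called). It was chosen as a measure after the data had been seen. Gzme was at 2.68 (SE 0.34, adjusted p 8.2e-06), Gzmk at 2.59 (SE 0.39, adjusted p 5.75e-05) and Gzmd at 2.50 (SE 0.36, adjusted p 3.58e-05), which ran over the alternatives from 2.10 to 3.07, 2.09 to 2.91 and 1.90 to 2.92. Gzma, with high signals, was at 2.21 (SE 0.25, adjusted p 1.4e-06; 2.07 to 2.41 over the alternatives), Prf1 at 1.76 (SE 0.31, adjusted p 0.000306), Gzmc at 1.41 (SE 0.30, adjusted p 0.00165) and Gzmb at 1.07 (SE 0.27, adjusted p 0.00588). Gzmf, at 0.70 (SE 0.34, adjusted p 0.157), was the 1 gene that did not pass. The 7 kept their calls whichever array was left out.

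Whether the acetate effect differed between the 3 kinds of culture was tested with limma's F test, which called 0 of the 8 genes, against 0.705% of all genes (77 genes). At an unadjusted p under 0.05 there were 3: Prf1 (0.000518, adjusted p 0.0527), Gzmb (0.00446, adjusted p 0.147) and Gzma (0.00847, adjusted p 0.185). For Prf1 the effect in Th17 minus that in Th1 was -2.91 (SE 0.74, adjusted p 0.0898), and that in Treg minus that in Th1 was -3.38 (SE 0.81, adjusted p 0.0646). For Gzmb the effect in Th17 exceeded that in Treg by 2.13 (SE 0.63, adjusted p 0.185) and that in Th1 by 1.75 (SE 0.63, adjusted p 0.147). In control arrays its signal was 3.87% to 19.6% of the highest on the array in Th17. It was 63.4% to 64.9% in Treg and 50.2% to 55.2% in Th1, and whether a ceiling limited its rise there was not tested. For Gzmk the 3 effects were 2.41, 2.95 and 2.41 in Th17, Treg and Th1 (adjusted p 0.92 in the F test). The F test called Prf1 when any 1 of 5 arrays was left out, Th17 acetate replicates 1, 2 or 3, Th1 control replicate 1 or Th1 acetate replicate 1, Gzma in 2 of these fits and Gzmb in 1.

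Other probe sets bear on some of these values. Gzmd has a second one, 1420343_at, whose acetate differences were 2.03 in Th17, 0.56 in Treg and 2.86 in Th1, of the same sign as those of the one used. Prf1 has a second one, 1450335_at, with signals of 9.57 to 30.0 on all 14 arrays, whose acetate differences were -0.19, 0.13 and -0.66. When the mean of both was used, the calls of Prf1 in Th1 with acetate, for untreated Th17 minus Treg and for untreated Treg minus Th1 were lost, at 1.60 (adjusted p 0.0797), -0.87 (adjusted p 0.151) and 0.73 (adjusted p 0.544). A further probe set annotated to both Gzme and Gzmd was left out. The ones used for Gzmd and Gzme are of the type whose probes can match several genes of a family, so RNA of their near copies may add to either value.

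The other granule proteases were mostly below the level tested. Of 12 in the list, 11 were on the array and 3 passed the filter, and the cluster members Gzmg and Gzmn, which lie between Gzmd and Gzmf, and Gzmm did not. Gzmg had group mean signals of 1.64 in untreated and 6.06 in acetate Th17 cultures, 6.67 and 14.9 in Treg, and 15.0 and 24.1 in Th1. Prtn3, proteinase 3 of neutrophil granules, rose with acetate in all 3 kinds of culture, by 3.90 in Th17 (adjusted p 6.03e-06), 3.30 in Treg (adjusted p 0.000631) and 1.97 in Th1 (adjusted p 0.0487; 0.0718 after quantile normalization). Its mean signal went from 3.24 to 95.3, from 9.22 to 98.7 and from 10.8 to 53.4. The other neutrophil genes measured stayed low, with mean signals of 6.21 to 14.2 for Elane, 4.71 to 9.56 for Mpo and 1.58 to 5.68 for S100a8 over the groups. Mcpt8, the next in signal, was at 0.12, 0.36 and 2.14 and did not pass.

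Of 15 tested genes of granule storage, activation and inhibition, 1 rose and 2 fell in Th17, 0 passed in Treg and 3 rose in Th1 with acetate. The 2 of 15 that fell in Th17 stand beside 13.4% of all genes called lower, and the 3 that rose in Th1 beside 1.63% called higher. The 1 that rose in Th17 stands beside 4.28% called higher. After quantile normalization 4 rose and 2 fell in Th17, 1 rose in Treg, and 2 rose and 2 fell in Th1. On that scale 11.7% of all genes were called higher and 8.66% lower in Th17. In Treg 7.07% were called higher, and in Th1 2.1% higher and 1.91% lower. Their median differences were -0.23, -0.06 and 0.64, against -0.29, -0.13 and 0.23 over all genes. Srgn, the proteoglycan that holds granzymes in the granule, was at -0.12, 0.20 and 0.23, and Nkg7, a granule membrane protein, at 0.58, 0.34 and 1.19, none of which passed. The serpin genes Serpinb6b and Serpinb9, whose products inhibit granzymes, rose in Th1 by 2.40 (adjusted p 0.000639) and 2.47 (adjusted p 0.0211). Serpinb6b also rose in Th17 by 0.86 (adjusted p 0.0475), while Serpinb9 was at -0.29 there and at -1.19 in Treg. After quantile normalization Serpinb6b kept both calls and Serpinb9 was not called. The cathepsin gene Ctsl rose in Th1 by 1.38 (adjusted p 0.0266), and after quantile normalization it was called higher in all 3, at 1.00, 0.82 and 1.17 in Th17, Treg and Th1. Cst7, a cathepsin inhibitor, fell in Th17 by 1.09 (adjusted p 0.0106), as did M6pr, the mannose 6-phosphate receptor that sorts proteins to lysosomes, by 0.72 (adjusted p 0.0458). Ctsc, the peptidase that removes the propeptide of granzymes, was at -0.43, 0.12 and 0.70 and did not pass.

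Of 14 tested genes of granule exocytosis, 0 rose and 2 fell in Th17, 0 passed in Treg and 1 rose in Th1, whereas after quantile normalization 4 rose and 1 fell, 3 rose and 2 fell, and 1 rose and 1 fell. The 2 of 14 that fell in Th17 are a share near that of all genes called lower (13.4%). The 1 that rose in Th1 stands beside 1.63% called higher. After quantile normalization 11.7% of all genes were called higher and 8.66% lower in Th17. In Treg the shares were 7.07% and 5.45%, and in Th1 2.1% and 1.91%. Unc13d, which primes granules for fusion, fell in Th17 by 1.54 (adjusted p 0.00049) and was at -0.99 in Treg and -0.69 in Th1. After quantile normalization it was called lower in all 3. Vamp8 fell in Th17 by 0.79 (adjusted p 0.0285) and was not called after quantile normalization. Stx7, a fusion protein of endosomes, rose in Th1 by 1.30 (adjusted p 0.0486), and was called higher in all 3 after quantile normalization. Rab7 (-0.12, -0.07 and 0.64) and Rab11a (0.66, 0.65 and 0.76), the brightest of the list, did not pass on the deposited scale; after quantile normalization Rab11a was called higher in Th17 and Treg.

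Among receptors and transcription factors that act upstream, 27 were tested; 0 rose and 6 fell in Th17, 2 rose and 2 fell in Treg and 2 rose and 0 fell in Th1. Of all genes 4.28% were called higher and 13.4% lower in Th17. It was 2.31% higher and 2.73% lower in Treg, and 1.63% higher in Th1. After quantile normalization 5 rose and 4 fell, 4 rose and 3 fell, and 1 rose. On that scale 11.7% of all genes were called higher and 8.66% lower in Th17. In Treg the shares were 7.07% and 5.45%, and in Th1 2.1% and 1.91%. Prdm1, which encodes the effector repressor Blimp-1, rose in Th1 by 2.08 (adjusted p 0.00876), and was at 0.79 in Th17 and 1.10 in Treg; after quantile normalization it was called higher in all 3. Tbx21 and Eomes, T-box factors that act at granzyme and perforin genes, were at 1.07 and 1.24 in Th17 (adjusted p 0.104 and 0.0554), and passed there after quantile normalization (adjusted p 0.0363 and 0.0364). In Treg they were at -0.20 and -1.16 and in Th1 at 0.80 and 1.04, with no call on either scale. Runx3 was at 0.13, 0.57 and -0.04 and Runx1 at -0.59, -0.89 and -1.58, none of which passed. Il2ra, a chain of the receptor for the IL-2 in all cultures, rose in Treg by 1.51 (adjusted p 0.0126) and in Th1 by 1.45 (adjusted p 0.0306; 0.0728 after quantile normalization), and was at -0.20 in Th17. Nfil3 rose in Treg by 2.39 (adjusted p 0.000981) and Bcl6 fell there by 1.53 (adjusted p 0.0446). In Th17 Foxp3 fell by 2.70 (adjusted p 8.06e-05), Il21r by 1.10 (adjusted p 0.00647), Il12rb1 by 1.14 (adjusted p 0.00664), Irf4 by 1.02 (adjusted p 0.0105), Notch2 by 0.85 (adjusted p 0.0238) and Notch1 by 0.74 (adjusted p 0.0354), and Foxp3 fell in Treg by 2.55 (adjusted p 0.00181). Notch1 and Notch2 were not called after quantile normalization. Hopx, the brightest of the list, was at 0.51, 0.09 and 0.45, and in Th17 was called higher after quantile normalization (0.79, adjusted p 0.00343).

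**Figure D5:**
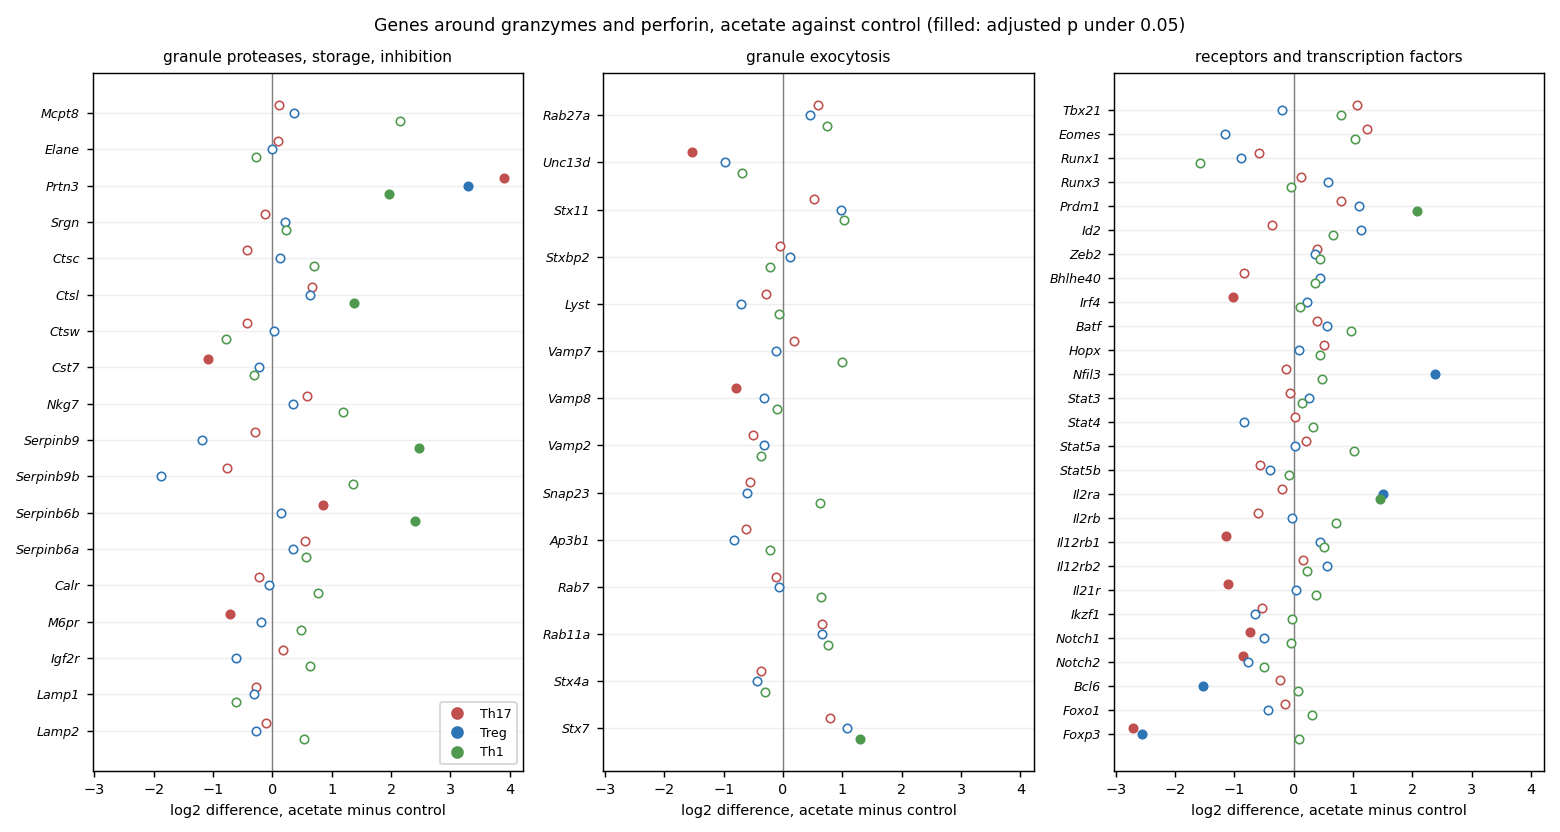
Acetate minus control for every tested gene of 4 lists around granzymes and perforin. The x axis is the log2 difference on the deposited scale, colours are the 3 kinds of culture, and filled points passed an adjusted p under 0.05. Prtn3 is the one gene filled in all 3 colours, and Serpinb9, Serpinb6b and Prdm1 are filled above 2 in Th1.

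Death ligands are the other route by which T cells kill. Of 11 tested genes of death ligands, their receptors and effector cytokines, 0 rose and 3 fell in Th17, 1 rose in Treg and 1 fell in Th1, where 13.4% of all genes were called lower in Th17, 2.31% higher in Treg and 0.412% lower in Th1. Fasl, the other main killing molecule of T cells, was at 0.52, -0.07 and 0.20 and did not pass, and its difference between untreated Th17 and Th1 cultures was -3.59 (adjusted p 1.33e-06). Ltb fell in Th17 by 1.64 (adjusted p 0.000106) and in Th1 by 1.36 (adjusted p 0.0115), and Casp8 and Cflar fell in Th17 by 1.00 and 1.07 (adjusted p 0.0137 and 0.0152). Lta rose in Treg by 2.51 (adjusted p 0.000371). Ifng was at 2.87 in Th1, with mean signals of 1719 without and 10097 with acetate, and did not pass (adjusted p 0.0877). Of 14 tested genes for granzyme substrates, 1 fell in Th17, Set, part of the complex cut by granzyme A, by 0.99 (adjusted p 0.0124), against 13.4% of all genes, and 0 passed in Treg or Th1; Nme1, another part of that complex, was at -0.55, 0.55 and 0.94.

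Across the 14 arrays Gzmd and Gzme were the most alike of the 8 genes, with a Pearson r of 0.977 on quantile-normalized log2 values, and Gzma and Gzmf the least, at 0.375. Gzma and Gzmk, neighbours on chromosome 13, were at 0.794. These values describe 14 arrays from 6 groups that share cultures and treatment, so part of any likeness is the group means. The probe sets used for Gzmd and Gzme are of the type whose probes can match several genes of a family. RNA of near copies may thus add to either signal, and its part in the likeness of Gzmd and Gzme was not tested. Among all genes tested, Plac8 (0.946), Hip1 (0.931), Ltk (0.930), Il18 (0.927) and Dnajc15 (0.925) were most like Gzmb. For Gzme they were Gzmd (0.977), Tbc1d7 (0.940), Hip1 (0.938), Gpnmb (0.927) and Ica1 (0.926). For Gzma they were Napsa (0.978), Pla1a (0.932), Slc25a20 (0.916), H2-DMb2 (0.915) and Clnk (0.914). For Prf1 they were Chst11 (0.950), Filip1 (0.947), Ajuba (0.930), Gzmd (0.923) and Havcr2 (0.916), the last of which encodes the checkpoint receptor TIM-3. For Gzmk they were Ndufa4 (0.925), Ccz1 (0.919), Polr3c (0.917), Gm5547 (0.908) and Slc52a3 (0.906), of which Ccz1 and Polr3c had 0.06 and 0.27 on the deposited scale.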

How the data were processed

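Total RNA of cultured cells was hybridised to 14 arrays, per the labels. Each probe set has a deposited linear signal intensity, which the authors computed with MAS5, as named per the submitters' processing notes (version not given in the sources used here). Detection calls of MAS5 played no role, and precision is limited by how many arrays there are. In all 34958 probe sets carried 1 symbol, 932 several and 9211 none, giving 18194 genes, each by its brightest probe set over all arrays. Genes whose mean log2 value reached the 40th percentile (a signal of 9.11), 10916 in number, were fitted in limma 3.58.1 (R 4.3.3), on log2(signal + 3), a pseudocount near the lowest quartile of signals, with 6 group means, trended eBayes, 8 residual degrees of freedom and Benjamini-Hochberg adjustment. A log2 difference understates the change of low signals. Groups came from the labels, in which neither scan dates nor batches appear; a batch shared by a whole group and the group itself cannot be told apart. The script was tested on simulated data.

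The members, the gene lists and the motifs were chosen with earlier results of these data known. Text names all 8 members and, of each list, the called genes (up to 6 by smallest p) and the 2 brightest; Elane, Mpo, S100a8, Runx1, Runx3, Ctsc, Tbx21, Eomes, Fasl, Ifng and Gzmg fall outside that rule and were added after their values were seen, as were the mean acetate effect and its alternatives. Listed genes with no probe set of 1 symbol, such as Il2rg and Tcf7, were not analysed here. Alternatives were 2 scalings, 2 pseudocounts, no filter, the mean of probe sets, a replicate block and leaving out each array; where 1 array was left in a group, it was assumed to vary like the others.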

Additional observations from a re-analysis of the deposited data

How the results depend on the processing

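Leaving out 1 array at a time gave 5 to 6 of the 8 genes called for acetate in Th17 cultures, 0 to 2 in Treg and 2 to 6 in Th1, 3 to 5 for untreated Th17 against Th1, 1 to 3 for untreated Treg against Th1, 6 to 8 for untreated Th17 against Treg, 0 to 3 for the difference of the effects, and 7 to 8 for the mean effect. The number of all genes called moved as well, so a steady count of members is no measure of stability. For untreated Th17 against Th1 it was 3025 with all arrays, 783 without control replicate 1 of Th17 and 5037 without replicate 2. For untreated Th17 against Treg the same fits called 1556, 806 and 2842 genes. The members called were 4 and 7 each time. In Th1 with acetate 2 were called, and not 4, after quantile normalization and after scaling to a common trimmed mean. For untreated Treg against Th1 1 was called, and not 3, with the common trimmed mean, a pseudocount of 1, no filter or the mean of probe sets. For the difference of the effects 1, Prf1, was called with a pseudocount at the 50th percentile (10.8). Same-numbered arrays of a subset deviated together with correlations of 0.15, 0.16 and -0.06 in Th17, 0.06 in Treg and -0.16 in Th1, so the numbers were not taken as pairs; with a replicate block 1 gene, Prf1, was called for the difference of the effects (adjusted p 0.0237), and 6, 1 and 5 genes for acetate in Th17, Treg and Th1.

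Of 1176 differences recomputed for single genes, 1105 kept direction and side of the threshold, 41 lost a call, 23 gained one and 7 turned sign. None of those 7 was called before or after. Gzmf, untreated Treg minus Th1, was at 0.063 with a pseudocount of 1, and ran from -1.13 to 1.11 when 1 array was left out, with a turned sign without Treg control replicate 2 (0.17) or Th1 control replicate 1 (1.11). Prf1, untreated Th17 minus Th1, ran from -1.23 to 0.64 and turned without Th17 control replicate 2 (0.29) or Th1 control replicate 1 (0.64). Gzmf in Th1 with acetate ran from -0.10 to 2.13 and Gzmd, untreated Treg minus Th1, from -0.076 to 2.10, both turning without Th1 control replicate 2. The cause was not tested, beyond the fewer arrays of such a fit. With 2 arrays in each group, standard errors of a difference were 0.45 to 0.72 for the 8 genes.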
